A study of Mus musculus with 16 samples.

Results

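Olfr1279 and Olfr1284 are a pair of mouse odorant receptor genes of the MOR245 family on chromosome 2, named MOR245-12 and MOR245-13 in the RefSeq annotation. They were selected by gene symbol as 2 of the 19505 genes named on the array, 1080 of which are odorant receptors, and each is read by 1 probe set. Both were picked because earlier results of these arrays listed them among the receptors whose enrichment in activity-labelled cells grew with the odor, so their own differences are described here without a test. Of the 26 MOR245 genes in the annotation, 23 have a probe set, and the 3 without are pseudogenes. All 23 lie on chromosome 2, and 2 of them, Olfr1034 and Olfr1036, carry a second family name.

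The mice were S100a5-tauGFP reporter animals of both sexes, 7 to 12 weeks old, kept in clean air chambers, and every group carried the reporter. The 4 groups were GFP+ cells and GFP- cells of mice stimulated with 1-pentanethiol, a volatile thiol, and GFP+ cells and GFP- cells of mice given filtered air as vehicle. Cells were sorted from dissociated olfactory mucosa of 8 pools of 3 mice, 4 pools per stimulus, and each pool gave 1 GFP+ and 1 GFP- Clariom S array. The series' design text names another odorant, bourgeonal, and the name on the sample labels is used here.

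Each mature olfactory sensory neuron mostly transcribes a single odorant receptor gene out of a very large family, so the level of a receptor transcript in a sorted fraction depends on how many neurons that chose the receptor fell in that fraction and on how much of it each makes. In these bulk samples fewer cells of a kind and less RNA per cell cannot be told apart. S100a5 encodes a calcium-binding protein whose transcription in these neurons follows their recent activity, and the GFP reporter was sorted on that basis. A receptor whose neurons respond to the odor is sought as a transcript that shifts toward the GFP+ cells.

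The pair is shown first by the start of its genes, because both are annotated from the start codon and the window carries the beginning of the receptor. Each window, from RefSeq on build GRCm38.p6, holds 250 bases before the annotated gene start in lower case and the first 50 coding bases in capitals. Both genes lie on the plus strand, at chr2:111305951-111306250 for the Olfr1279 window and chr2:111378752-111379051 for the Olfr1284 window.
Olfr1279: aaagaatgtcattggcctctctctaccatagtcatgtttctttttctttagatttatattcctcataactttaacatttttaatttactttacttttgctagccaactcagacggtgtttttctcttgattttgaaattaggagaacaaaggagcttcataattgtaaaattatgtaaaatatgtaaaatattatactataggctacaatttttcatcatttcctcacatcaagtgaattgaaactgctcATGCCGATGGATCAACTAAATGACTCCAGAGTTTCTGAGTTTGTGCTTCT
Olfr1284: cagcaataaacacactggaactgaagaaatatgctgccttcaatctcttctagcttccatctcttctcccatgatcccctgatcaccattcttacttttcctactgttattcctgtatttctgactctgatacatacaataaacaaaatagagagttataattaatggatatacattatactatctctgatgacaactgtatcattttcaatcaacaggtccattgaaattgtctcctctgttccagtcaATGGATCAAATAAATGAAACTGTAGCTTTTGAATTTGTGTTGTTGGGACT
With the Olfr1279 frame moved by 6 bases, 32 of 44 overlapping coding bases (72.7%) were the same in the pair, without gaps. Among the 16 MOR245 genes with such a window that begins with ATG at the gene start, Olfr1276 was closest to both, with 75.0% of 44 bases the same as in Olfr1279 and 76.0% of 50 bases the same as in Olfr1284. The homeodomain core TAATTA, searched on both strands, begins 92 bases before the start codon in Olfr1284, and TAATTG begins 91 bases before it in Olfr1279. Windows with TAATTA made up 18.5% of 925 odorant receptor windows, 20.0% of 20 MOR245 windows with the pair included, and 5.29% of 32851 windows of all genes. For TAATTG the shares were 23.5%, 20.0% and 8.0%. Only 673 of the 925 receptor windows have ATG at the annotated start, so not all are placed at a start codon as those of the pair are. The Olf/Ebf core (TCCC and GGGA with 2 unspecified bases between them, both strands) was in neither window, and in 0.541% of the receptor windows and 0.904% of all. Because the annotation begins at the start codon, the transcription starts of the pair may lie outside these windows.

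All values below are log2 probe set signals as deposited, and differences are on that scale, ± SE from a limma fit to all 16 arrays. The signal of different probe sets was not compared as abundance, since probes bind unequally. To judge detection, each receptor was set against the negative control entries of the same array, whose median was 5.99 to 6.48 on 15 arrays and 7.28 on the GFP+ array of vehicle pool 2. S100a5, the gene behind the reporter, averaged 17.10 in GFP+ and 16.11 in GFP- cells with odor (0.99 ± 0.12, limma adjusted p = 7.79e-06). With vehicle it averaged 16.67 in GFP+ and 15.80 in GFP- cells (0.87 ± 0.12, limma adjusted p = 3.51e-05). Omp, which encodes the olfactory marker protein of mature neurons, averaged 18.27 to 18.35 in the 4 groups. The summed signal of 8 mature neuron markers, S100a5 and Omp among them, was 20.62 to 20.68 in odor GFP+ and 20.44 to 20.53 in odor GFP- arrays (log2). It was 20.47 to 20.63 in vehicle GFP+ and 20.45 to 20.48 in vehicle GFP- arrays. Of the 8, 0 passed between odor and vehicle in either fraction, and 2 passed as higher in GFP+ cells with each stimulus. Omp and another of them, Stoml3 (18.74 to 18.79 in the 4 groups), read near the highest tested signal of 18.85. The sum therefore does not measure the share of mature neurons. All 6 neutrophil markers passed as lower in GFP+ cells with each stimulus. So did 4 of 5 immature neuron, 4 of 4 globose basal and cycling, 3 of 3 microvillar and 3 of 3 B and plasma cell markers measured. Of the 4 sustentacular markers 2 and 1 passed as lower with odor and vehicle, and 0 of 3 horizontal basal cell markers passed. Over all probe sets 11.9% and 11.8% were lower.

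Olfr1279 was the weakly detected receptor of the pair, and odor GFP+ cells were the group in which it cleared the negative control median on every array. It cleared their upper quartile on 0 of 16 arrays. In odor GFP+ cells it read 7.51, 7.25, 7.88 and 7.17 in pools 1 to 4, which is 0.82 to 1.40 above the negative control median of each array. In vehicle GFP+ cells it read 4.81, 4.87, 5.41 and 5.23, under that median on all 4 arrays. The GFP+ groups did not overlap, which in this direction held for 1.75% of all probe sets. In odor GFP- cells it read 5.67, 5.82, 5.86 and 4.84, again under the median on all 4 arrays. In vehicle GFP- cells it read 6.75, 5.84, 6.12 and 5.76, 0.76 above its array's median in pool 1, 0.01 above it in pool 3 and under it in pools 2 and 4. Odor GFP- values overlapped with those of both vehicle groups, so the order of those 3 groups is not resolved beyond their spread except that vehicle GFP- lay above vehicle GFP+ on every array.

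Olfr1284 was strongly detected in 3 groups and stood closer to the negative controls in the fourth, odor GFP- cells. It read 11.13, 10.79, 10.97 and 11.19 in GFP+ cells of odor pools 1 to 4. In GFP+ cells of vehicle pools 1 to 4 it read 10.82, 10.76, 10.68 and 10.85, so the GFP+ groups overlapped. In odor GFP- cells it read 7.21, 6.99, 7.41 and 6.28, against 9.83, 9.22, 9.53 and 9.74 in vehicle GFP- cells. These GFP- groups did not overlap, which in this direction held for 1.37% of all probe sets. Olfr1284 exceeded 95.6% to 97.1% of the negative control entries on odor GFP+ arrays and 54.4% to 75.6% on odor GFP- arrays, against 91.6% to 96.6% on vehicle GFP+ and 92.0% to 94.6% on vehicle GFP- arrays. For Olfr1279 the same shares were 66.6% to 74.2% on odor GFP+ and 23.7% to 44.9% on odor GFP- arrays, against 11.7% to 30.5% on vehicle GFP+ and 42.3% to 66.3% on vehicle GFP- arrays. The highest tested signal on any array was 18.85, so neither receptor was near the top of the measured range.

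**Figure D1:**
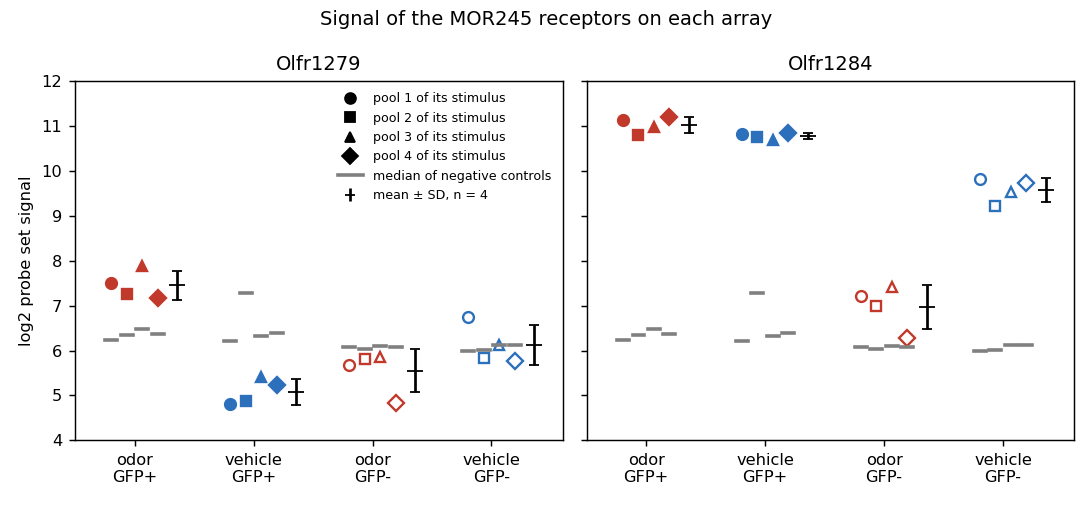
Log2 probe set signal of Olfr1279 and Olfr1284 on each of the 16 arrays, with filled symbols for GFP+ and open symbols for GFP- cells, red for odor and blue for vehicle, and the mean ± SD of each group of 4. Grey dashes mark the median of the negative controls of each array, which Olfr1279 clears on all 4 odor GFP+ arrays, while Olfr1284 lies between 10.68 and 11.19 on the 8 GFP+ arrays and lies at 6.28 to 7.41 on the odor GFP- arrays.

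The GFP+ minus GFP- difference within a pool compares cells of the same 3 mice. For Olfr1279 it was 1.83, 1.43, 2.01 and 2.33 in odor pools 1 to 4, against -1.94, -0.97, -0.71 and -0.53 in vehicle pools 1 to 4. Its reading was thus higher in GFP+ cells in 4 of 4 odor pools and lower in 4 of 4 vehicle pools, where both fractions lay at or near the negative control level and the sign is not a measured expression difference. Across arrays its fractions did not overlap with either stimulus, as was the case for 14.4% of all probe sets with higher values in GFP+ cells of the odor pools and 12.0% with lower values in GFP+ cells of the vehicle pools. For Olfr1284 it was 3.92, 3.80, 3.56 and 4.91 in the odor pools, against 0.98, 1.54, 1.15 and 1.11 in the vehicle pools. Olfr1284 was higher in GFP+ cells in all 8 pools. Every odor pool lay above every vehicle pool for both genes, as it did for 1.85% of all probe sets and 5.28% of odorant receptors. The pair was selected by this contrast, so nothing is read from that order. The fractions of Olfr1284 did not overlap with vehicle either, as was the case for 11.7% of all probe sets with higher values in GFP+ cells. The groups of pools averaged 1.90 ± 0.38 with odor and -1.04 ± 0.63 with vehicle for Olfr1279, and 4.05 ± 0.59 with odor and 1.20 ± 0.24 with vehicle for Olfr1284 (SD, n = 4 each).

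**Figure D2:**
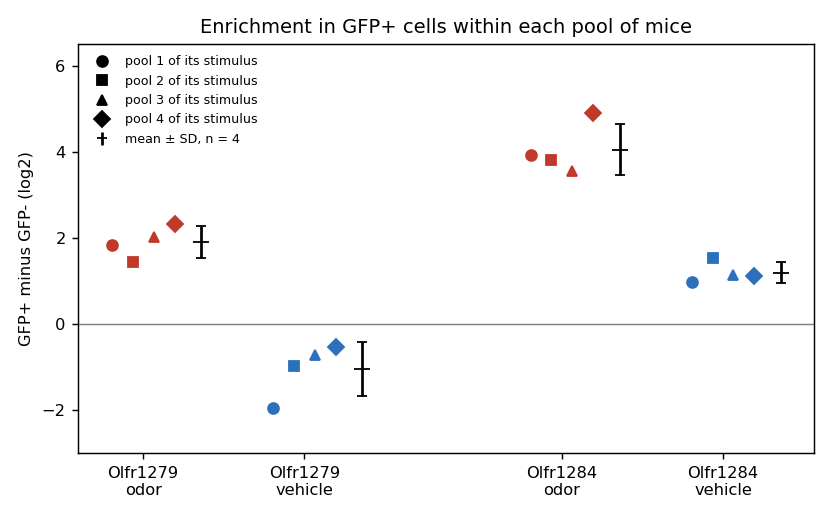
GFP+ minus GFP- difference (log2) of Olfr1279 and Olfr1284 in each pool of 3 mice, odor in red and vehicle in blue, with the mean ± SD of 4 pools. Olfr1279 crosses 0 between the stimuli (1.43 to 2.33 with odor, -1.94 to -0.53 with vehicle), while Olfr1284 is above 0 in all 8 pools (3.56 to 4.91 with odor, 0.98 to 1.54 with vehicle).

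The gain of enrichment with odor, meaning the difference between the fractions with odor after subtracting the one with vehicle, came to 2.94 ± 0.36 for Olfr1279 and 2.85 ± 0.28 for Olfr1284. The Olfr1279 value is a difference between readings of which 3 groups lay near or under the negative control median, so its size is not set against that of Olfr1284. In GFP+ cells Olfr1279 differed between odor and vehicle by 2.37 ± 0.25, and Olfr1284 by 0.24 ± 0.20. In GFP- cells Olfr1279 differed by -0.57 ± 0.25, and Olfr1284 by -2.61 ± 0.20. The odor GFP- readings of Olfr1284 were 0.21 to 1.3 above the negative control median and over the upper quartile on 1 of 4 arrays, so the difference there is against a signal close to the controls. The GFP+ side made up 8.56% of the gain of Olfr1284, and no share is given for Olfr1279. Olfr1279 lay under the negative control median on all arrays of vehicle GFP+ and odor GFP- cells. Its folds against these groups therefore depend on the floor used. With the lower group set no lower than that median on each array, odor GFP+ cells were 1.87-fold above vehicle GFP+ cells. The floor of vehicle pool 2 was 7.28 there, against 5.99 to 6.48 on the other arrays, which lowers this fold. Against odor GFP- cells the fold was 2.59 with a floor set in the same way. These are not lower limits, since Olfr1279 in odor GFP+ cells was over the upper quartile of the controls on 0 of 4 arrays. No fold is given for Olfr1279 between the vehicle fractions, which lay near or under the negative control median.

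Over all 22206 probe sets 14 (0.063%) passed in the gain at an adjusted p under 0.05, all odorant receptors with a positive gain, and the pair belongs to them by its selection. Nothing is read from that count for the pair. The GFP+ side of the other 12 ranged from 3.78% to 86.7% of their gain, with a median of 49%. The highest share was that of Olfr1395, and only Olfr1183, at 3.78%, had a smaller one than Olfr1284. The order of these last 2 is not resolved, with odor differences in GFP+ cells of 0.16 ± 0.40 for Olfr1183 and 0.24 ± 0.20 for Olfr1284. Olfr1183 averaged 11.46 in GFP+ and 6.61 in GFP- cells with odor, while with vehicle it averaged 11.30 in GFP+ and 10.77 in GFP- cells. Its odor GFP- average stood close to the negative control medians of those arrays, 6.04 to 6.10, which limits its share as well. All of these receptors were selected by the contrast, so their shares are a description.

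**Figure D3:**
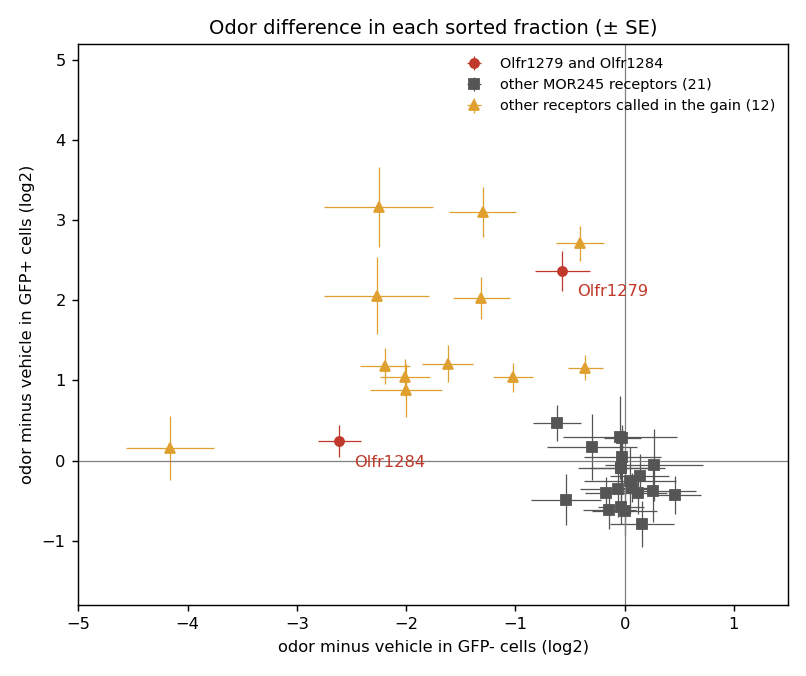
Odor minus vehicle difference (log2, ± SE from the fit) in GFP+ cells on the vertical axis and in GFP- cells on the horizontal axis, for Olfr1279 and Olfr1284 (red circles), the other 21 MOR245 receptors (grey squares) and the other 12 receptors that passed in the gain (yellow triangles). Olfr1279 lies high at 2.37 and -0.57, Olfr1284 lies to the left at 0.24 and -2.61, and the rest of the family stays between -0.79 and 0.47 in GFP+ cells and between -0.62 and 0.46 in GFP- cells.

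The other 21 MOR245 receptors are the family genes left after the pair was taken by its gain. They were tested in the fit over all probe sets, but their count in the gain follows from that selection. None passed in the gain, in the odor difference of GFP+ cells or in that of GFP- cells by limma (lowest limma adjusted p = 0.69, 0.572 and 1.0), comparisons in which 0.063%, 0.0766% and 0.0495% of all probe sets passed. Of odorant receptors 1.3%, 0.833% and 0.833% passed in these comparisons, so nothing is read from the lack of calls. At an unadjusted p under 0.05 there were 3 (1 higher, 2 lower), 5 (1 higher, 4 lower) and 1 (lower) of the 21. Over all 22206 probe sets there were 1033, 1587 and 580, and over the 1080 odorant receptors 109, 101 and 83. Their median gain was -0.31, beside -0.17 over the 1080 odorant receptors and 0.01 over all probe sets. Olfr1288 (MOR245-9) had the highest gain of the 21, 1.10 ± 0.32 (adjusted p = 0.69). Its GFP+ minus GFP- difference was 0.18, 0.78, 0.37 and 1.36 in the odor pools, against -0.38, 0.07, -0.38 and -0.99 in the vehicle pools. These pools did not overlap, which held in this direction for 1.85% of all probe sets and 5.28% of odorant receptors. Olfr1317 (MOR245-4) had the lowest gain, -0.95 ± 0.41 (adjusted p = 0.999). Its odor pools lay under its vehicle pools, as was so for 1.46% of all probe sets and 2.78% of odorant receptors.

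In the odor pools most of the other family genes were lower in GFP+ cells. Both genes of the pair read higher there. The gain that selected the pair contains this difference, so no contrast with the family is read from it. With odor 13 of the other 21 were lower in GFP+ cells and 4 higher (Olfr1034, Olfr1036, Olfr1276 and Olfr1288), where 11.9% of all probe sets were lower and 11.3% higher, and 27.2% and 36.7% of odorant receptors. In the vehicle pools 9 were lower and 2 higher (Olfr1034 and Olfr1036), where 11.8% of all probe sets were lower and 9.34% higher, and 24.4% and 36.9% of odorant receptors. The counts of higher genes were small and moved with single pools: 2 and 1 without odor pools 2 and 4, and 0 and 1 without vehicle pools 1 and 4. The 14 measured genes from Olfr1303 to Olfr1318, grouped after their values were seen, had 12 lower and 0 higher with odor, and 8 lower and 0 higher with vehicle. Only Olfr1309 and Olfr1314 of these 14 did not pass in the odor pools (0.17 ± 0.27 and 0.30 ± 0.17). Olfr1278 (MOR245-11), the receptor next to Olfr1279, was the most depleted of the family, by -3.81 ± 0.52 in the odor pools (adjusted p = 2.56e-05) and -4.14 ± 0.52 in the vehicle pools (adjusted p = 1.01e-05). In GFP+ cells it was above the negative control median on 2 of 4 odor and 2 of 4 vehicle arrays, so these differences are against a signal near the controls. Its gain was 0.33 ± 0.73 (adjusted p = 0.999). Of the 21, 16 were above the negative control median on all 16 arrays. Olfr1314 and Olfr1289 were above it on 1 and 3 arrays, so Olfr1279 is not the sole dim probe set of the family.

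**Figure D4:**
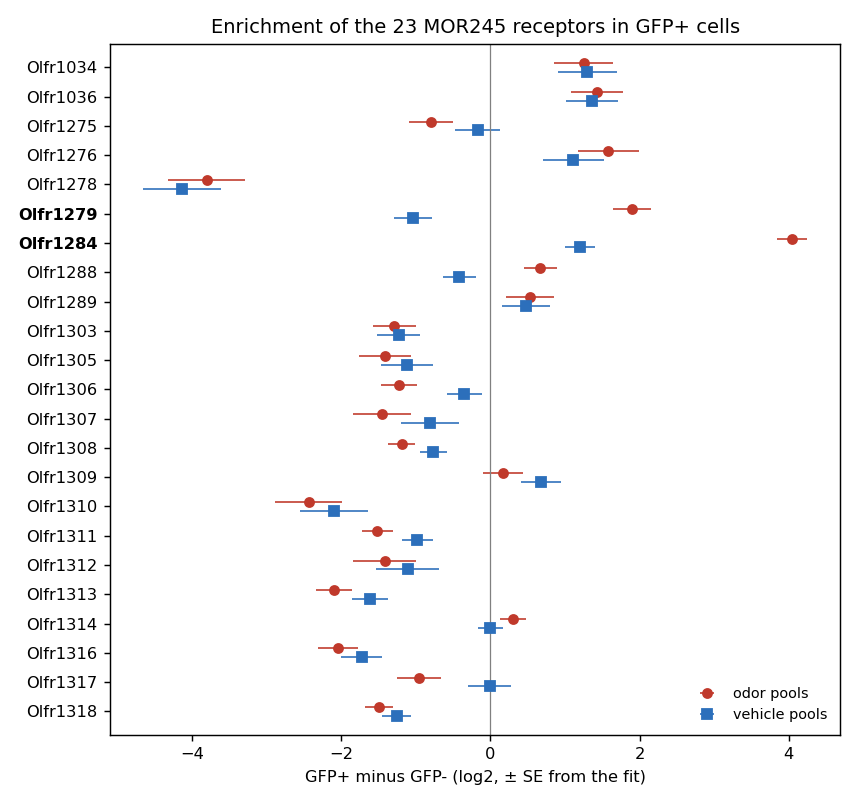
GFP+ minus GFP- difference (log2, ± SE from the fit) of the 23 MOR245 receptors with a probe set, by number of the Olfr symbol, in the odor pools (red circles) and the vehicle pools (blue squares). Olfr1279 changes side between the stimuli (1.90 and -1.04), Olfr1284 moves right (4.05 and 1.20), and 12 of the 14 genes from Olfr1303 on are lower in GFP+ cells of the odor pools.

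The location of the pair within the receptor cluster was described through its neighbours, the 10 nearest odorant receptor genes with a probe set on either side of each gene. These are 24 genes, 5 of them of MOR245. Olfr1506 and Olfr1565 shared the same values on every array and carry 1 measurement between them. None of the 24 passed in the gain, in the odor difference of GFP+ cells or in that of GFP- cells by limma (lowest adjusted p = 0.69, 0.472 and 1.0). In these comparisons 0.063%, 0.0766% and 0.0495% of all probe sets passed, and 1.3%, 0.833% and 0.833% of odorant receptors. At an unadjusted p under 0.05 there were 2, 3 and 1 of the 24, beside 1033, 1587 and 580 of all 22206 probe sets. Their median gain was 0.10. Olfr1280, on the other side of Olfr1279 from Olfr1278, had the highest gain, 1.29 ± 0.54 (adjusted p = 0.999), with an odor difference of 1.05 ± 0.38 in GFP+ cells. Olfr1283, next to Olfr1284, averaged 10.98 in GFP+ and 9.90 in GFP- cells with odor, while with vehicle it averaged 11.10 in GFP+ and 10.01 in GFP- cells, a gain of -0.02 ± 0.32. Olfr1286, on its other side, was enriched in GFP+ cells by 2.14 ± 0.24 in the odor pools (adjusted p = 3.45e-06) and by 1.51 ± 0.24 in the vehicle pools (adjusted p = 1.56e-04). In the sort 12 of the 24 were higher and 5 lower with odor, where 36.7% of odorant receptors were higher and 27.2% lower, and 11.3% and 11.9% of all probe sets. With vehicle 9 were higher and 5 lower, where 36.9% of odorant receptors were higher and 24.4% lower, and 9.34% and 11.8% of all probe sets. Receptors beside the pair included genes that passed in the sort as depleted, genes that passed as enriched and genes that did not pass. That none passed in the gain is near the shares over all probe sets and all odorant receptors, so nothing is read from it.

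Of the listed genes of the receptor signal and its helpers, only Camk2n1 passed between the stimuli. An activated odorant receptor acts through the G protein subunit encoded by Gnal and adenylyl cyclase 3 (Adcy3) on the cyclic nucleotide-gated channel (Cnga2, Cnga4, Cngb1), and the chloride channel encoded by Ano2 amplifies the current. Of 24 measured genes of this cascade and its helpers, 1 rose with odor in GFP+ cells, where 0.0766% of all probe sets passed. None passed in GFP- cells or in the gain by limma. At an unadjusted p under 0.05 there were 1 and 1 of the 24, beside 580 and 1033 of all 22206 probe sets. The gene that rose was Camk2n1, an inhibitor of calcium/calmodulin-dependent kinase II, by 2.68 ± 0.28. In GFP- cells Camk2n1 also read higher with odor, by 1.24 ± 0.28 (limma adjusted p = 0.301). Its gain was 1.44 ± 0.39 (limma adjusted p = 0.64). It lies outside the cascade named above and was listed with earlier results of these data known, so its rise is a description. Gnal, Adcy3 and Cnga2 differed by 0.09 ± 0.11, 0.07 ± 0.12 and 0.06 ± 0.10 in GFP+ cells and by -0.08 ± 0.11, -0.04 ± 0.12 and 0.13 ± 0.10 in GFP- cells, short of the threshold. In the sort 6 of the 24 were higher in GFP+ cells and 2 lower with odor, and 3 higher and 2 lower with vehicle, beside 11.3% and 11.9% of all probe sets with odor and 9.34% and 11.8% with vehicle. Gnas, which encodes the widely expressed stimulatory G protein subunit, was lower by -3.30 ± 0.21 and -3.22 ± 0.21, and the phosphodiesterase gene Pde1c higher by 0.60 ± 0.10 and 0.69 ± 0.10, with odor and with vehicle.

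The genes whose signal ran most like each member over the 16 arrays were found by Pearson correlation across all named probe sets. This is a description over arrays that fall into 4 groups and share their pools, and it reflects mainly the group means. For Olfr1279 they were Olfr195 (r = 0.895), Olfr1193 (0.850), the cardiac actin gene Actc1 (0.843), Olfr328 (0.830) and Crispld1 (0.827). For Olfr1284 they were Olfr325 (0.959), Olfr175 (0.942), Olfr15 (0.941), Olfr1209 (0.939) and Olfr165 (0.933). Crispld1 averaged 3.80 to 4.53 in the 4 groups, under the lowest negative control median of any array, 5.99. Its likeness to Olfr1279 is therefore not one of detected expression. Actc1 averaged 6.9 to 7.6 and was dim as well. The lists share no gene, and Olfr1279 and Olfr1284 correlated with each other at r = 0.383. After each array's value was taken relative to its group mean, the pair correlated at r = 0.583 over the 16 deviations. The lowest odor GFP- value of both genes came from pool 4, where Olfr1279 read 4.84 and Olfr1284 6.28. On that array the median of all odorant receptors was 9.51, against 9.54 to 9.80 on the other odor GFP- arrays. Without that pool the odor difference in GFP- cells was -0.33 for Olfr1279 and -2.38 for Olfr1284.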

How the data were processed

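Cells from 24 mice in 8 pools were measured on 16 Clariom S arrays in 4 groups of 4, from 50 to 100 ng of total RNA each, per the labels' protocols. Mice spent 40 h in chambers flushed at 3.1 L/min, with stimulus pulses of 10 s every 20 min starting at 26 h. The deposited values are log2 signals that the authors made with Affymetrix Expression Console, per the submitters' processing notes; the sources used here do not give its version, summarization, normalization or genome build. Of 28846 features, 22206 probe sets were tested, 19572 of them with 1 symbol. The 5222 negative control entries and 1418 other control entries were left out of the tests, and no further scaling or filter was applied. Group means were fitted with limma 3.58.1 (R 4.3.3) with empirical Bayes moderation and no block, and 5 comparisons were two-sided with Benjamini-Hochberg adjustment over the tested probe sets and a threshold of 0.05. The fit was tested on simulated data. The number of arrays limits the precision.

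GFP+ and GFP- arrays of a pool come from the same mice, which pairs them; their deviations from group means correlated with r = 0.0119 to 0.224. Arrays of odor and vehicle pools with the same replicate number had r = 0.186 to 0.29 in GFP- cells, and 0.0311 to 0.256 in GFP+ cells. Arrays with unlike numbers were not compared, so these values do not decide whether the numbers pair pools. Fits with a pool or number block were alternatives.

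Members, gene lists, tests and naming rule were set with earlier results of these data known. Named were the members, MOR245 genes that passed or had the highest or lowest gain, nearest neighbours, the 5 genes most like each member, called cascade genes, S100a5, Omp and receptors with the most similar coding start (the rule asked for protein identity, which was not used here). Olfr1395 and Olfr1183 were named after their values were seen. MOR245 genes were those with a MOR245 name among RefSeq synonyms, and order and sequence windows are from RefSeq on GRCm38.p6.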

Additional observations from a re-analysis of the deposited data

Results flagged for a closer look

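Olfr1279 is listed because its GFP+ minus GFP- difference had opposite signs with and without the odor: positive in all 4 odor pools and negative in all 4 vehicle pools, a gain of 2.94. The gene was selected from this comparison, so the difference was not tested. Among the other 12 receptors that passed in the gain, 6 also had a positive mean difference with odor and a negative one with vehicle. On all 4 vehicle GFP+ arrays its signal lay under the negative control median, and on 2 of 4 vehicle GFP- arrays it did too, so the negative sign is not a measured expression difference. Across the 12 groups of 4 values examined for the pair, no array or pool stood far enough from its group to be singled out.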

How the results depend on the processing

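The signed differences of both genes kept their direction in every comparison and alternative run. Over these, the gain was 2.64 to 3.11 for Olfr1279 and 2.56 to 3.02 for Olfr1284, the odor difference 2.23 to 2.55 and 0.19 to 0.34 in GFP+ cells, and -0.69 to -0.33 and -2.75 to -2.38 in GFP- cells. The GFP+ enrichment of Olfr1284 with vehicle was 1.54 with array medians set equal and 0.97 with receptor medians set equal, by construction of the scaling. With array medians set equal, 15107 and 15011 probe sets passed in the odor and vehicle sort, 13098 and 13003 of them higher and 2009 and 2008 lower, against 2518 and 2074 higher and 2649 and 2617 lower as deposited, and 5 other MOR245 receptors were higher with vehicle. These scalings move the median of all probe sets: in the odor and vehicle sort it was 0.461 and 0.46 with array medians set equal, against 0.135 and 0.113 as deposited. Quantile normalization gave 3594 higher and 2521 lower calls in the odor sort and 3665 higher and 2501 lower in the vehicle sort. Setting receptor medians equal gave 22 calls in the gain, 17 in the odor difference of GFP- cells, and 3279 in the odor sort, 865 higher and 2414 lower; the vehicle sort then had 515 higher and 3237 lower. Fitted on the compared groups alone, 6 passed in the odor difference of GFP+ cells, against 17. Leaving out each pool, or the GFP+ array of vehicle pool 2, gave 12 to 16 calls in the gain, 7 to 15 in GFP+ and 7 to 15 in GFP- cells, 3340 to 5946 and 3735 to 4849 in the odor and vehicle sort. The lowest GFP+ count came without vehicle pool 4, with 8 without odor pool 2, and the lowest odor sort count without odor pool 2. Leaving out gave 1 to 4 other MOR245 receptors higher with odor and 0 to 3 with vehicle. With each pool as a replicate block 14 passed in the gain, 5072 in the odor and 4744 in the vehicle sort. With the number as a replicate block the odor difference gave 14 calls in GFP+ and 9 in GFP- cells. Either block moved no total count by over 1.5 times, while the number block left 1 higher call in GFP- cells, against 2, and added 1 lower call in GFP+ cells. Against the upper quartile of the negative controls Olfr1279 was above on 0 of 16 arrays, against 6 over their median. By Spearman correlation 2 of the 5 genes most like each member were shared with the Pearson list. The cause of these shifts was otherwise not tested.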
